A study of Mus musculus with 18 samples.

Results

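The cell-cycle exit genes described here are 10 genes of the machinery that ends or permits division: the CDK inhibitors *Cdkn1a* (p21), *Cdkn1b* (p27), *Cdkn1c* (p57) and *Cdkn2c* (p18), the D cyclins *Ccnd1*, *Ccnd2* and *Ccnd3*, their kinase *Cdk4*, and *Trp53* (p53) with its ubiquitin ligase *Mdm2*. They were chosen by name, all 10 were found by Ensembl gene identifier in the files, and all 10 were among the 17672 genes tested. RNA-seq libraries came from immortalized mouse myoblasts, the precursor cells of muscle, in 6 groups of 3 libraries: wildtype (WT) and LAP2α knockout (KO) cells, each proliferating (Prol), at confluence (D0), and 2 days into differentiation (D2). Prol and D0 cells were kept in 20% serum and D2 cells for 48 h in 5% serum. KO cells had received Cas9 with a guide against LAP2α, an isoform of the *Tmpo* gene, and WT cells the same plasmid with no guide. Both were populations sorted as bulk for the plasmid's fluorescence and not single clones. All 6 groups share 1 further genotype, p53 knockout, since the cell line was made from a p53 knockout mouse. So the WT cells here are wildtype for LAP2α only.

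Cells leave the cell cycle when CDK inhibitors block the cyclin-dependent kinases. Cyclin D with CDK4 starts the phosphorylation of the retinoblastoma protein that lets a cell pass into S phase. Proteins of the Cip/Kip family (p21, p27, p57) bind cyclin and CDK complexes, and those of the INK4 family (p18 among them) bind CDK4 and CDK6 alone. In muscle, withdrawal from the cycle comes with the first steps of differentiation and is permanent in myotubes. p21 is known both as a classical target gene of p53 and as a gene that myoblasts can switch on without p53, and cyclin D3 as the D cyclin that myotubes retain.

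The values are CPM, a gene's share of the library's counts scaled to a common total after the authors' scaling of library sizes. Library totals were 26437823 to 41619016 expected counts. *Tmpo* RNA, summed over isoforms, was 228 to 315 CPM in the Prol libraries and 94.5 to 157 CPM in the D2 libraries, with 228 to 260 CPM in KO Prol and 275 to 315 CPM in WT Prol, and this sum does not test the loss of 1 isoform. *Trp53* RNA was found in all 18 libraries, at 40.1 to 162 CPM. The labels do not say which part of the gene the knockout removed, and a gene-level value is no test of that knockout. The 6 myoblast markers (*Myod1*, *Myf5*, *Des*, *Cdh15*, *Myog*, *Myh3*) summed to 32.1 to 40.2 CPM in the Prol libraries. At D2 this sum was 1640 to 3130 CPM in WT and 1030 to 1180 CPM in KO. *Myh3* alone had a mean of 1370 CPM in WT D2 and 691 CPM in KO D2. In D2/Prol 5 of the 6 were called higher in both genotypes. *Myf5* was not called and its estimates were negative, with means of 24.5 CPM in Prol and 17.6 CPM at D2 in WT, and 23.4 and 20.0 CPM in KO. Of 5 fibroblast markers 4 were listed, and their sum was 16.8 to 46.6 CPM in Prol and 121 to 306 CPM at D2, while *Tcf21* was not among the listed genes. All 4 listed (*Dcn*, *Lum*, *Pdgfra*, *Thy1*) were called higher in D2/Prol in both genotypes, and their part in the results at D2 was not tested. The listed endothelial markers (3 of 4) summed to at most 2.57 CPM, those of Schwann cells and smooth muscle (3 of 5) to at most 4.91 CPM and those of adipocytes (3 of 4) to at most 31.8 CPM in any library. Of 4 immune markers 2 were listed, with a sum of 3.62 to 6.61 CPM in Prol and D2 libraries. In such bulk samples, fewer cells of a type and less RNA per cell cannot be told apart.

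Promoters in the RefSeq table (GRCm38.p6) were found for 7 of the 10 genes, 10 promoters in all, each from 250 bases before to 50 bases after a start site. The 4 shown here were chosen because p21 and *Mdm2* are both classical p53 target genes, and *Trp53* is the gene of the p53 knockout that all groups share. Capitals mark matches, on either strand, to any of 4 motifs. E-boxes, with the letters CANNTG, include the sites read by MyoD and related muscle factors, and a match does not say which factor reads it. GC boxes, which Sp factors are known to read, were searched as GGGCGG in the same way. The TATA box, where the general transcription machinery can bind, was searched as TATAAA. The p53 consensus decamer, which is only a part of a full p53 site, was searched by its ambiguous letters RRRCWWGYYY. The upstream *Cdkn1a* promoter lies at chr17:29090729-29091028, the downstream one at chr17:29093519-29093818 (both plus strand), that of *Trp53* at chr11:69580109-69580408 (plus strand) and that of *Mdm2* at chr10:117710709-117711008 (minus strand).
*Cdkn1a*, upstream start: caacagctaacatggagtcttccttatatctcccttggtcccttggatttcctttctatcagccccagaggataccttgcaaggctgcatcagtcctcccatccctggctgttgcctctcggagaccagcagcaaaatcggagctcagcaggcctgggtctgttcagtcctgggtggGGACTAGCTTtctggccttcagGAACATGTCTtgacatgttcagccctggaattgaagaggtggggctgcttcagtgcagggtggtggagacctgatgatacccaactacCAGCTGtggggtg
*Cdkn1a*, downstream start: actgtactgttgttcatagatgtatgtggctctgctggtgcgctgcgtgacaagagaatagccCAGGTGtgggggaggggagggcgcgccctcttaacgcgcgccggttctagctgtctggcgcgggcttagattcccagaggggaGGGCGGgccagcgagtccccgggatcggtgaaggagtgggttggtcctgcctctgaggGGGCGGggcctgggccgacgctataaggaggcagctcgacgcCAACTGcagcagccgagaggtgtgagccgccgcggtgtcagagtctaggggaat
*Trp53*: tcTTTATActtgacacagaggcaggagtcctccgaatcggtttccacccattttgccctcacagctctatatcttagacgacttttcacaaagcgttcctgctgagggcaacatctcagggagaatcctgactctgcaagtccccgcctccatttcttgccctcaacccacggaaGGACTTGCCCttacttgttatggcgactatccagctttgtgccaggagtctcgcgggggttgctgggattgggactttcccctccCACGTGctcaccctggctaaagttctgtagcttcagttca
*Mdm2*: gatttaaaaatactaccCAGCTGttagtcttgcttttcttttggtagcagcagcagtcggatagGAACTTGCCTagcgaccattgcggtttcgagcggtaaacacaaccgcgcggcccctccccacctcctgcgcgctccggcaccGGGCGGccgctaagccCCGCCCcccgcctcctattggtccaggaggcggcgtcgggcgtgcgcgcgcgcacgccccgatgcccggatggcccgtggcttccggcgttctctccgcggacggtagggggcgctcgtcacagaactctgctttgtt

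The upstream *Cdkn1a* promoter held 2 matches to the p53 decamer consensus, beginning 73 and 51 bases before the start site, and the E-box CAGCTG beginning 37 bases after it. Its downstream promoter held 2 other E-boxes, 2 GC boxes and no decamer. *Mdm2* and *Trp53* each held 1 decamer, and *Mdm2* also a CAGCTG E-box. Among 32817 promoters of this length, 8.36% held the decamer, 72.3% any E-box, 16.3% the CAGCTG form, 35.6% the GC box and 13.6% the TATA box. None of the 10 promoters held an E2F site (TTTGGCGC or else TTTCCCGC or else TTTCGCGC or else TTTGCCGC, in 2.26% of all promoters), an AP-1 site (TGANTCA, found in 7.81% of all promoters) or a cyclic AMP response element (TGACGTCA, found in 1.79%). Of the 10 promoters, 3 held the decamer, 6 an E-box, 2 of them in its CAGCTG form, 7 a GC box and 1 a TATA box. The TATA match, in *Trp53*, lay on the opposite strand and began 248 bases before the start site, near the far end of the sequence. Matches to the CAGCTG form are counted among E-boxes too. These are matches of letters only, and the decamer was searched after the sequences had been read.

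The 10 genes lie on 6 chromosomes (GRCm38, GENCODE M21). *Cdkn1a* (ENSMUSG00000023067, chr17:29090976-29100727) and *Ccnd3* (ENSMUSG00000034165, chr17:47505051-47599691) share chromosome 17, both on the plus strand. *Cdkn1b* (ENSMUSG00000003031, chr6:134920401-134925513, plus) and *Ccnd2* (ENSMUSG00000000184, chr6:127125162-127152193, minus) share chromosome 6. *Cdkn1c* (ENSMUSG00000037664, chr7:143458339-143461050) and *Ccnd1* (ENSMUSG00000070348, chr7:144929931-144939925) share chromosome 7, both on the minus strand. *Cdk4* (ENSMUSG00000006728, chr10:127063534-127067920, plus) and *Mdm2* (ENSMUSG00000020184, chr10:117688875-117710758, minus) share chromosome 10. *Cdkn2c* (ENSMUSG00000028551, chr4:109660876-109667189, minus) and *Trp53* (ENSMUSG00000059552, chr11:69580359-69591873, plus) lie on chromosomes 4 and 11. The annotation has a listed gene on the opposite strand overlapping *Ccnd1* (*LTO1*), *Ccnd2* (*9330179D12Rik*), *Ccnd3* (*Bysl*) and *Cdk4* (*Tspan31*), and the counting is stated to be strand-specific.

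Between Prol and D2, 5 of the 10 genes changed in WT cells and 5 in KO cells. The 3 Cip/Kip inhibitors rose, with *Cdkn1a* up 41.1-fold in WT and 21.6-fold in KO, while *Ccnd1* was 8.18-fold and 6.23-fold lower and *Trp53* 2.55-fold and 2.95-fold lower. *Cdkn2c*, *Ccnd2*, *Cdk4* and *Mdm2* passed no test in this comparison in either genotype, nor did *Ccnd3*. Calls are limma adjusted p-values (Benjamini-Hochberg over the 17672 genes) under 0.05, a threshold that 30.7% of all genes passed in WT D2/Prol and 32.3% in KO D2/Prol. Of all genes, 16.6% were called higher and 14.1% lower in WT, and 17.1% higher and 15.2% lower in KO. Nothing in the labels says that the 3 libraries of a group came from separate cultures, so the p-values measure the spread between these libraries, which may be technical.

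**Figure D1:**
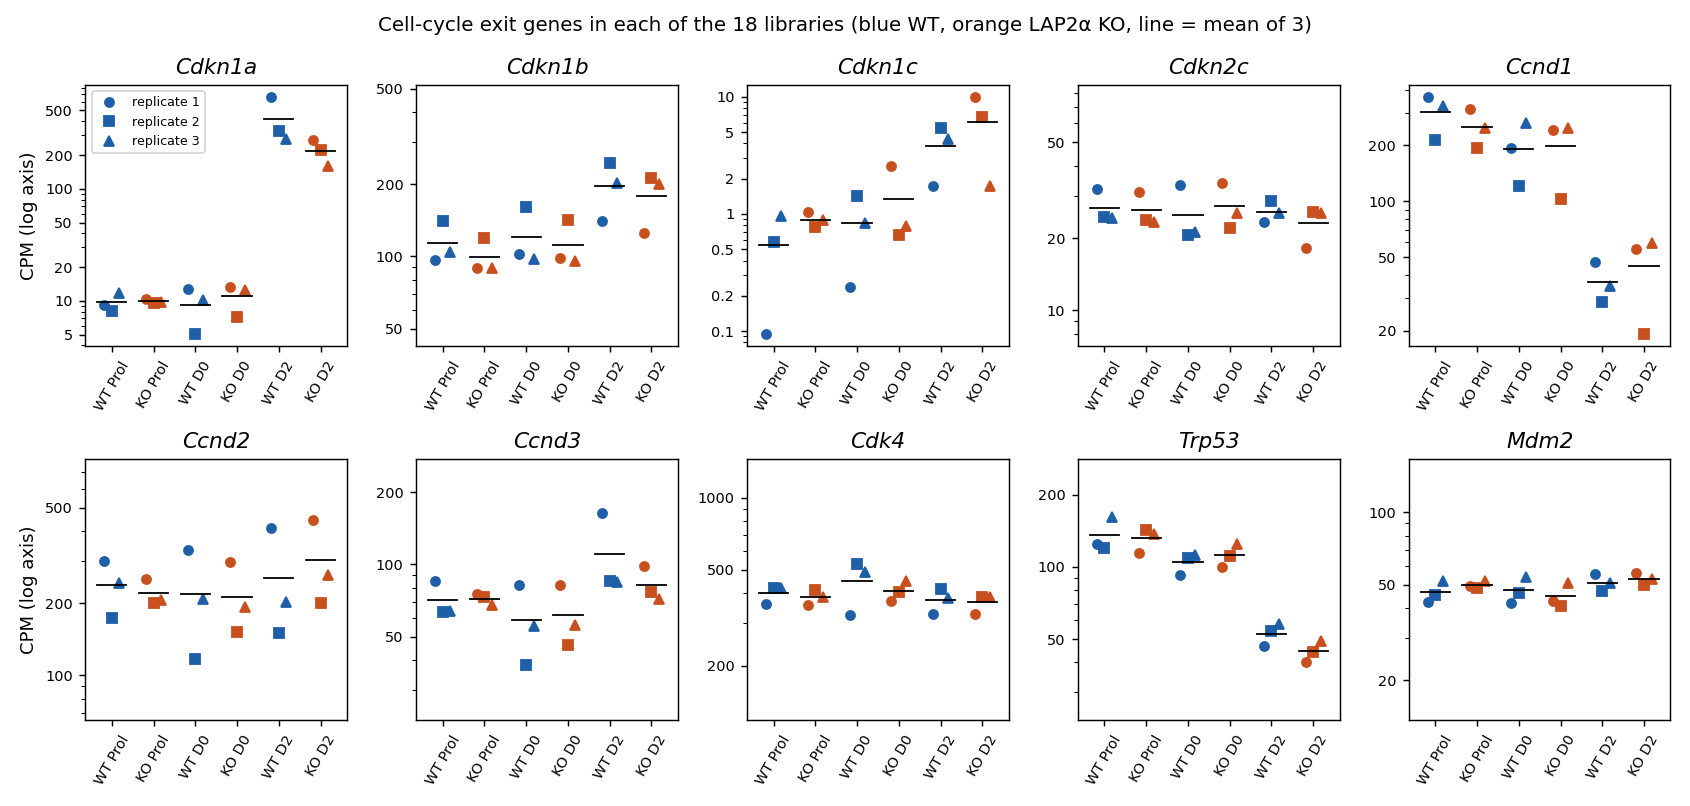
Level of each of the 10 genes in every library, in CPM on log axes, by group (blue WT, orange KO, marker shape for the replicate number, line for the mean of 3 libraries). *Cdkn1a* stood at 161 to 662 CPM in the 6 D2 libraries and at 5.01 to 13.3 CPM in the other 12, while *Cdk4* kept within 326 to 528 CPM in all 18.

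*Cdkn1a* encodes p21, an inhibitor of cyclin E and cyclin A kinases. Its level in WT Prol libraries was 9.15, 8.09 and 11.8 CPM, in WT D0 libraries 12.7, 5.01 and 10.1 CPM, and in WT D2 libraries 662, 327 and 278 CPM. In KO cells it was 10.3, 9.55 and 9.84 CPM in Prol, 13.3, 7.23 and 12.6 CPM at D0 and 270, 223 and 161 CPM at D2. Every D2 library was thus far above every Prol and D0 library of its genotype, and Prol and D0 libraries overlapped. The log2 fold change D2/Prol was 5.36 ± 0.36 (SE, limma adjusted p = 1.28e-07) in WT and 4.43 ± 0.36 (adjusted p = 7.48e-07) in KO. Against D0 it was 5.51 ± 0.36 (adjusted p = 1.25e-07) in WT and 4.32 ± 0.36 (adjusted p = 1.27e-06) in KO. This rise took place in cells that all carry the p53 knockout genotype.

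*Cdkn1b* encodes p27, which holds cyclin E and CDK2 inactive in resting cells. Its level was 96.6, 140 and 104 CPM in WT Prol and 141, 245 and 202 CPM in WT D2. For KO cells the values were 89.2, 119 and 89.2 CPM in Prol and 125, 213 and 201 CPM at D2. In both genotypes the lowest D2 library lay just above the highest Prol library. On the log2 scale the change was 0.77 ± 0.28 in WT (limma adjusted p = 0.0447) and 0.83 ± 0.28 in KO (adjusted p = 0.0292), a rise of 1.70-fold and 1.78-fold. These calls sat close to the threshold in the main test. Of 15 alternatives for each genotype, 9 kept the call in WT and 11 in KO. A fit blocked on replicate number was among those that kept it (limma adjusted p = 0.000391 in WT and 0.000182 in KO, SE 0.14 in both). In WT the libraries numbered 3 did not deviate together in this comparison (correlation 0.0393), so blocking does not pair all of its libraries. In WT the call was lost when Prol replicate 1 or 3 or D2 replicate 2 or 3 was left out (adjusted p 0.116 to 0.174), with voom weights (0.0502) and with only the groups compared in the fit (0.0657), and in KO when Prol replicate 1 or 3 or D2 replicate 2 or 3 was left out (0.0926 to 0.118).

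*Cdkn1c* encodes p57, the inhibitor expressed from the maternal allele, and was the least abundant of the 10. WT Prol libraries had 0.0937, 0.573 and 0.962 CPM, and WT D2 libraries 1.74, 5.37 and 4.37 CPM. KO Prol libraries had 1.03, 0.770 and 0.882 CPM, and KO D2 libraries 9.99, 6.76 and 1.72 CPM. D2 and Prol libraries did not overlap in either genotype, although replicate 1 of WT Prol held only 3 expected counts and the KO D2 libraries were spread over a wide range. On the log2 scale *Cdkn1c* rose by 3.21 ± 0.88 in WT (limma adjusted p = 0.0111) and 2.45 ± 0.88 in KO (adjusted p = 0.0426). Without WT Prol replicate 1 the WT value was 2.21 (adjusted p = 0.0645), and the KO call was lost in 6 of 15 alternatives. Among these were the fits without any 1 of the 3 Prol libraries or without D2 replicate 1 or 2 (1.94 to 2.56, adjusted p 0.0775 to 0.145).

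Of the INK4 family, *Cdkn2c* (p18) ranged from 18.2 to 33.8 CPM over the 18 libraries and every group overlapped every other one it was compared with. Its log2 fold change D2/Prol was −0.05 in WT (95% interval −0.54 to 0.43) and −0.18 in KO (−0.66 to 0.31). Other CDK inhibitors were read from a list of 4 genes, all tested. *Cdkn2b* (p15, INK4 family) rose from a mean of 42.1 to 96.4 CPM in WT, and was at a mean of 108 CPM in KO D2 (limma adjusted p = 0.00588 and 0.00115). *Cdkn2a*, the locus of p16 and of p19ARF, which this gene-level value does not separate, rose by 0.92 ± 0.30 and 1.30 ± 0.30 on the log2 scale (adjusted p = 0.0259 and 0.00309). Its WT D2 libraries held 548, 316 and 271 CPM against 237, 166 and 176 CPM in Prol. The WT call for *Cdkn2a* was lost in 5 of 15 alternatives (limma adjusted p up to 0.115). Among these were the fits without D2 replicate 1 (0.62) and without Prol replicate 2 or 3 (0.82 and 0.87). *Cdkn2d* (the INK4 inhibitor p19, −0.66 in WT and −0.88 in KO) and *Cdkn3*, a phosphatase that acts on CDKs (−1.01 and −1.02), did not pass in either genotype. The list therefore had 2 genes called higher, 0 lower and 2 not called, with a median log2 fold change of 0.13 in WT and 0.21 in KO, where the median of all genes was −0.012 and 0.024.

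**Figure D2:**
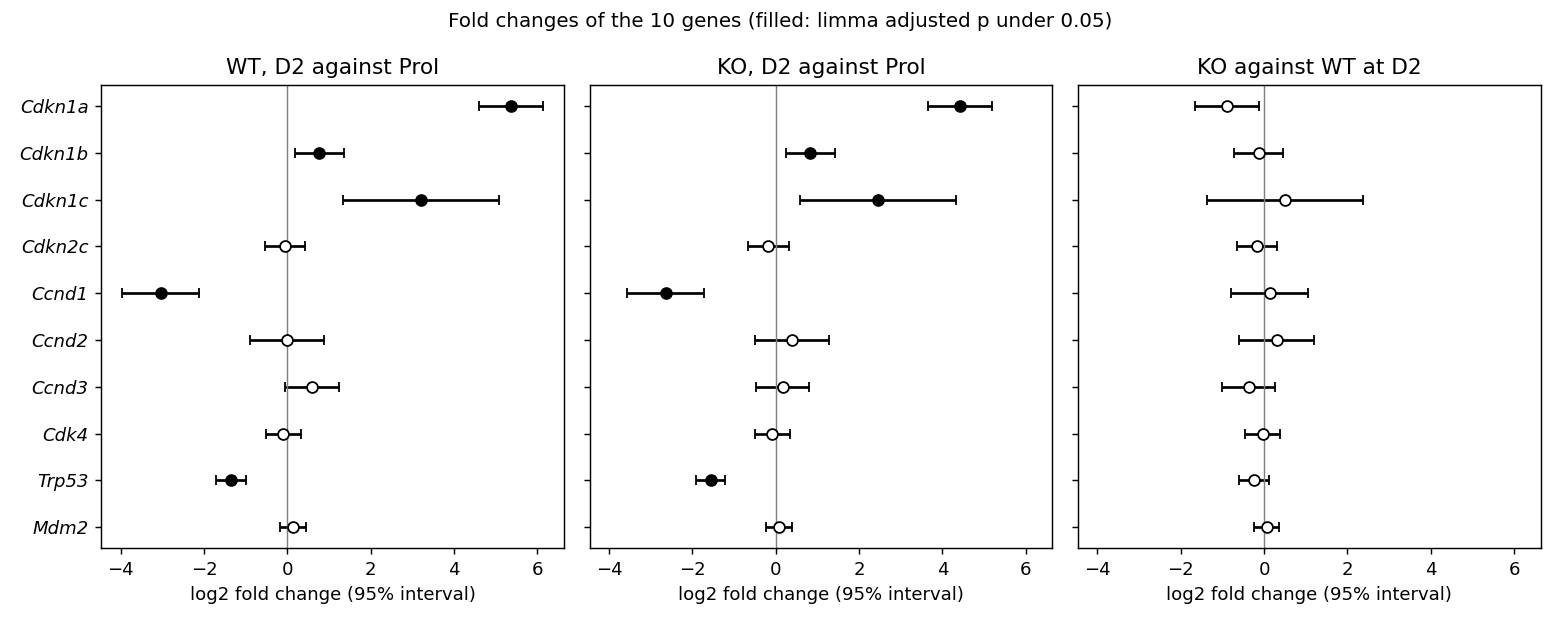
Log2 fold changes of the 10 genes in D2 against Prol for WT and for KO, and in KO against WT at D2, with 95% intervals from limma (filled points have an adjusted p under 0.05). *Cdkn1a* had the largest rise in both genotypes (5.36 and 4.43) and *Ccnd1* the largest fall (−3.03 and −2.64), and no point is filled in the comparison of the genotypes.

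*Ccnd1* encodes cyclin D1, the D cyclin most responsive to growth factors. It fell from 366, 215 and 326 CPM in WT Prol, through 194, 121 and 263 CPM at D0, to 47.1, 28.6 and 34.8 CPM at D2. In KO cells it was 316, 193 and 247 CPM in Prol, 242, 103 and 249 CPM at D0 and 55.2, 19.1 and 59.2 CPM at D2. All D2 libraries lay below all Prol and D0 libraries, while Prol and D0 overlapped. The log2 fold change D2/Prol was −3.03 ± 0.44 in WT (limma adjusted p = 7.36e-05) and −2.64 ± 0.44 in KO (adjusted p = 0.000253). Most of it lay after confluence, since D2/D0 was −2.34 ± 0.44 and −2.21 ± 0.44 (adjusted p = 0.00088 and 0.00131) and D0/Prol −0.69 ± 0.44 and −0.43 ± 0.44 (adjusted p = 1.0 in both). With 1 library left out the D0/Prol value ran from −0.95 (without D0 replicate 3) to −0.39 (without D0 replicate 2) in WT, and from −0.64 to −0.01 in KO without the same libraries.

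*Ccnd2* (cyclin D2) was 300, 173 and 242 CPM in WT Prol and 409, 150 and 203 CPM in WT D2. Its KO libraries held 252, 201 and 206 CPM in Prol and 445, 201 and 261 CPM at D2. These groups overlapped, and the log2 fold change D2/Prol was −0.00 in WT (95% interval −0.90 to 0.89) and 0.39 in KO (−0.50 to 1.28). *Ccnd3* (cyclin D3) was 85.3, 63.3 and 63.8 CPM in WT Prol, 82.2, 38.0 and 55.5 CPM at D0 and 163, 85.5 and 84.1 CPM at D2. The KO values were 75.5, 73.0 and 67.6 CPM in Prol, 82.3, 46.4 and 55.8 CPM at D0 and 98.1, 76.4 and 71.9 CPM at D2. *Ccnd3* rose in WT D2/D0 by 0.92 ± 0.30 on the log2 scale (limma adjusted p = 0.0331), and was not called in WT D2/Prol (0.59 ± 0.30, adjusted p = 0.155), KO D2/Prol (0.18 ± 0.30) or KO D2/D0 (0.45 ± 0.30). Its WT D2/D0 call was lost in 6 of 16 alternatives (limma adjusted p up to 0.158). Among these were the fits without D0 replicate 2 (0.64), D0 replicate 3 (0.92) or D2 replicate 1 (0.61), the library with 163 CPM. In KO D2/D0, with the replicate number as a block, *Ccnd3* (0.45 ± 0.17, adjusted p = 0.0444), *Ccnd2* (0.48 ± 0.18, adjusted p = 0.0419) and *Cdkn1b* (0.67 ± 0.14, adjusted p = 0.00131) passed the limma threshold and the number of the 10 genes called was 6 in place of 3.

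In D2/D0, 4 of the 10 genes were called in WT (*Cdkn1a* and *Ccnd3* higher, *Ccnd1* and *Trp53* lower) and 3 in KO (*Cdkn1a* higher, *Ccnd1* and *Trp53* lower). Of all genes 26.0% were called in WT (14.7% higher, 11.3% lower) and 28.3% in KO (15.3% higher, 12.9% lower). *Cdkn1b* changed by 0.71 ± 0.28 and 0.67 ± 0.28 in this comparison (limma adjusted p = 0.0698 and 0.0837) and *Cdkn1c* by 2.38 ± 0.88 and 2.14 ± 0.88 (adjusted p = 0.0572 and 0.0816), below the threshold for a call. *Cdkn1b* passed it in both genotypes when both D0 libraries numbered 2 or both D2 libraries numbered 1 were left out (limma adjusted p 0.0151 to 0.0311), and *Cdkn1c* did so in WT (0.0369 and 0.0423). Over all 16 alternatives *Cdkn1c* passed in 8 in WT and in 4 in KO (lowest limma adjusted p 0.0348 and 0.0224). *Cdkn1b* passed in 6 of the 16 in each genotype.

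Levels can be set beside each other between genes only per transcript length, so CPM was divided by the kilobases of each gene's longest principal transcript. On this scale WT Prol cells held 80.8 ± 20.9 CPM per kilobase of *Ccnd1* (SD, n = 3), 37.6 ± 10.1 of *Ccnd2* and 33.5 ± 5.95 of *Ccnd3*. At D2 *Ccnd1* was the lowest of them, with 9.85 ± 2.52 of *Ccnd1*, 40.1 ± 21.6 of *Ccnd2* and 52.5 ± 21.4 of *Ccnd3*. *Ccnd1* made up 50.1% to 56.0% of the D cyclin sum in WT Prol libraries and 8.16% to 11.5% in WT D2 libraries. In KO it was 43.8% to 52.8% in Prol and 7.02% to 17.4% at D2. The share of *Ccnd3* was 19.4% to 26.1% in WT Prol and 49.0% to 56.4% in WT D2, and in KO 22.3% to 29.3% and 35.3% to 49.5%, with no overlap between the states in either genotype. The summed level itself was 152 ± 35.6 CPM per kilobase in WT Prol and 102 ± 45.2 in WT D2, and these libraries overlapped. At D2 *Ccnd3* stood above *Ccnd2* in each of the 3 WT libraries and in 1 of the 3 KO libraries. Which of the pair stood higher depended on the length used: with the union of all exons the shares at D2 in WT were 55.5% for *Ccnd2* and 27.1% for *Ccnd3*.

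**Figure D3:**
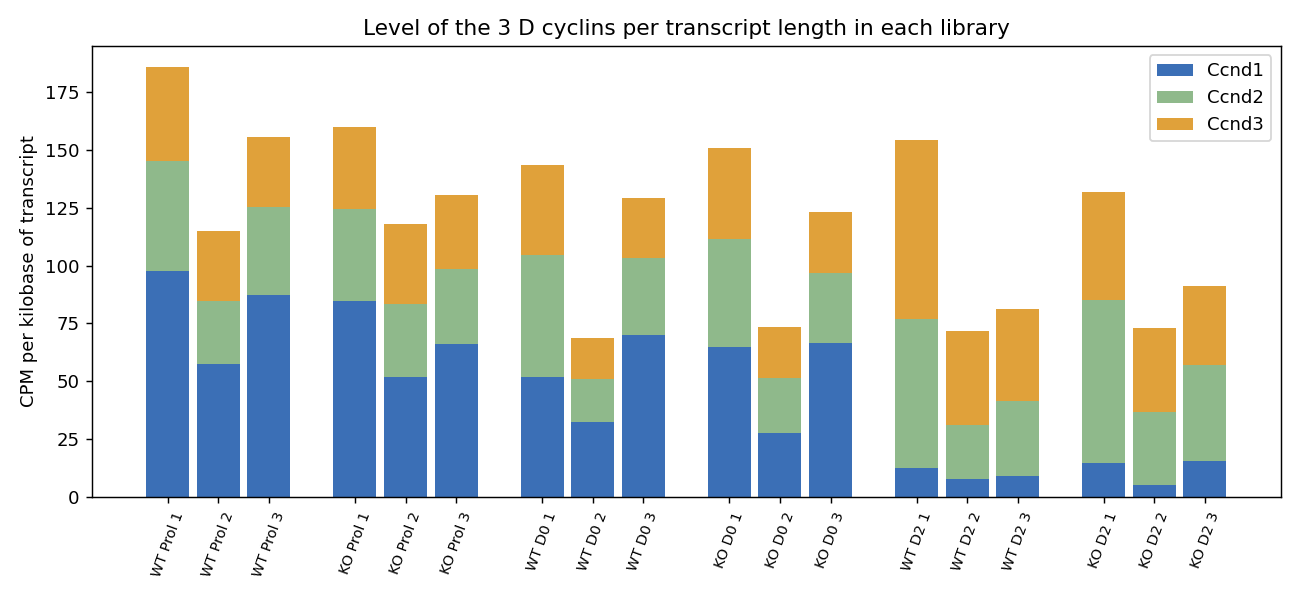
Stacked bars of the 3 D cyclins in each of the 18 libraries, in CPM per kilobase of the longest principal transcript. *Ccnd1* is the largest segment in the Prol libraries (50.1% to 56.0% in WT) and the smallest in the D2 libraries (8.16% to 11.5% in WT).

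For the Cip/Kip inhibitors on the same scale, *Cdkn1b* was the most abundant in Prol, with 24.9 ± 5.06 CPM per kilobase in WT against 4.65 ± 0.91 of *Cdkn1a* and 0.286 ± 0.229 of *Cdkn1c*. At D2 *Cdkn1a* led with 203 ± 101 CPM per kilobase in WT and 105 ± 26.4 in KO. Its share of the Cip/Kip sum moved from 11.1% to 19.5% in WT Prol libraries to 73.5% to 90.9% in WT D2 libraries, and from 14.8% to 19.7% to 63.2% to 79.9% in KO. The ratio of the Cip/Kip sum to the D cyclin sum was 0.210 ± 0.0853 in WT Prol, 0.321 ± 0.204 in WT D0 and 2.49 ± 0.424 in WT D2. It was 0.203 ± 0.0545, 0.298 ± 0.154 and 1.58 ± 0.504 in the same states of KO. The size of the ratio depended on the length used, and with the shortest principal transcript it was 0.521 ± 0.214 in WT Prol and 5.55 ± 0.961 in WT D2.

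*Cdk4*, the catalytic partner of the D cyclins, was the most abundant of the 10 per length in Prol and at D0. It was 360, 422 and 420 CPM in WT Prol, 326, 528 and 490 CPM at D0 and 327, 415 and 383 CPM at D2. The KO libraries lay within the same range, from 327 to 451 CPM. Its log2 fold change D2/Prol was −0.10 in WT (95% interval −0.52 to 0.32) and −0.08 in KO (−0.50 to 0.34), an interval that leaves out a change of 1.5-fold. At D2 *Cdkn1a* and *Cdk4* did not differ beyond their spread in WT (203 ± 101 and 183 ± 21.6 CPM per kilobase), and in KO *Cdkn1a* (105 ± 26.4) stayed below *Cdk4* (178 ± 16.3). This order depended on the length used: with the shortest principal transcript *Cdkn1a* stood at 458 ± 227 in WT and 237 ± 59.7 in KO.

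*Trp53* RNA was 125, 120 and 162 CPM in WT Prol, 92.5, 109 and 112 CPM at D0 and 46.9, 54.0 and 57.7 CPM at D2. In KO it was 114, 143 and 137 CPM in Prol, 100, 111 and 124 CPM at D0 and 40.1, 44.3 and 49.0 CPM at D2. All D2 libraries lay below all others. The log2 fold change D2/Prol was −1.35 ± 0.17 in WT (limma adjusted p = 1.79e-05) and −1.56 ± 0.17 in KO (adjusted p = 4.91e-06), and D2/D0 was −0.99 ± 0.17 and −1.33 ± 0.17 (adjusted p = 0.000406 and 2.64e-05). *Mdm2*, whose product ubiquitinates p53 and which p53 itself induces, was 42.6, 45.3 and 52.1 CPM in WT Prol and 55.3, 47.0 and 50.7 CPM at D2. Over all 18 libraries it kept between 40.9 and 56.0 CPM. Its log2 fold change D2/Prol was 0.13 in WT (95% interval −0.18 to 0.44) and 0.09 in KO (−0.22 to 0.40).

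No change of the 10 genes passed the threshold at confluence. By limma adjusted p, 0 of the 10 were called in WT D0/Prol, where 0.00566% of all genes were, and 0 in KO D0/Prol, where 0.0% were. With voom weights the count was also 0 in both. At an unadjusted p under 0.05, 1 of the 10 passed in WT (*Trp53*, −0.37 ± 0.17, adjusted p = 1.0, its D0 libraries all below its Prol libraries) against 2.17% of all genes, and 0 in KO.

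Lists of related genes give the rest of the pathway, with 73 genes tested in all. In WT D2/Prol, 10 of the 73 were called higher and 26 lower, and in KO D2/Prol also 10 and 26. Of 14 other cyclins, CDKs and CDC25 phosphatases, 0 were called higher and 10 lower in WT and 11 lower in KO, with list medians of −1.58 and −1.85 on the log2 scale. The largest WT falls were those of *Ccna2* (cyclin A2, −2.81 ± 0.24, from a mean of 380 to 55.5 CPM), *Ccne2* (cyclin E2, −2.52 ± 0.67) and *Ccnb1* (cyclin B1, −2.51 ± 0.26). *Cdk2*, the partner of cyclin E, was called lower in KO only by the test (−0.53 ± 0.17, limma adjusted p = 0.0288, against −0.19 ± 0.17 in WT), while 0 of the 14 genes passed the test of the difference between the genotypes, with or without adjustment. *Cdk6*, a partner of the D cyclins, was not called (−0.83 ± 0.48 and −0.74 ± 0.48). All 6 proliferation markers fell in both genotypes, with *Aurkb* (a mitotic kinase, −2.96 ± 0.32), *Top2a* (−2.78 ± 0.33) and *Mki67* (−2.75 ± 0.45) leading in WT.

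Of 13 genes that turn over D cyclins and p27, 0 were called higher and 3 lower in both genotypes. The F-box protein *Skp2*, which marks p27 for degradation, fell from 112, 109 and 121 CPM in WT Prol to 39.0, 43.2 and 43.1 CPM at D2 (−1.45 ± 0.17, limma adjusted p = 1.08e-05). Its cofactor *Cks1b* fell by 1.41 ± 0.25 and *Dtl*, the substrate receptor of the ligase that degrades p21 in S phase, by 1.79 ± 0.28 on the log2 scale. In KO the falls were 1.62 ± 0.17, 1.61 ± 0.25 and 2.16 ± 0.28. The medians of this list (−0.23 in WT, −0.16 in KO) stood beside −0.012 and 0.024 for all genes, and *Ambra1*, the substrate receptor for D cyclins, was not called (−0.05 and −0.03).

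Among 8 tested genes of the p53 family and its regulators, *Trp63* (p63) was called higher in both genotypes and *Atm*, the DNA damage kinase, lower in WT only by the test (−0.99 ± 0.36, limma adjusted p = 0.0491, against −0.85 ± 0.36, adjusted p = 0.0878 in KO), and 0 of the 8 passed the test of the difference between the genotypes, with or without adjustment. The *Atm* call in WT was lost in 8 of 15 alternatives (adjusted p up to 0.17) and made in KO in 5 of 15. *Trp63* went from 0.576, 0.613 and 0.287 CPM in WT Prol to 6.15, 3.02 and 5.02 CPM at D2 (3.28 ± 0.85, adjusted p = 0.00791). Of 28 further p53 target genes, 7 were called higher, 6 lower and 15 not in WT, and the same numbers were found in KO. Their median log2 fold change was 0.19 in WT and 0.16 in KO. The rises were led by *Eda2r*, a death-domain receptor of the TNF family (5.20 ± 0.39, from a mean of 0.508 to 17.4 CPM in WT), *Trp53inp1*, a stress-induced partner of p53 (4.74 ± 0.43, 1.06 to 27.8 CPM), and the death receptor *Fas* (2.89 ± 0.54, 4.36 to 26.5 CPM). The falls were led by *Gtse1* (−2.71 ± 0.30) and *Ckap2* (−1.88 ± 0.29), both known for roles in mitosis, and *Pidd1* (−1.41 ± 0.47). The WT call for *Pidd1* was lost in 6 of 15 alternatives, with −0.87 and an adjusted p of 0.141 without D2 replicate 1. *Bax*, *Phlda3*, *Ccng1* and *Zmat3*, also classical p53 targets, were not called in either genotype, with −0.41, 0.32, 0.27 and −0.64 in WT.

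**Figure D4:**
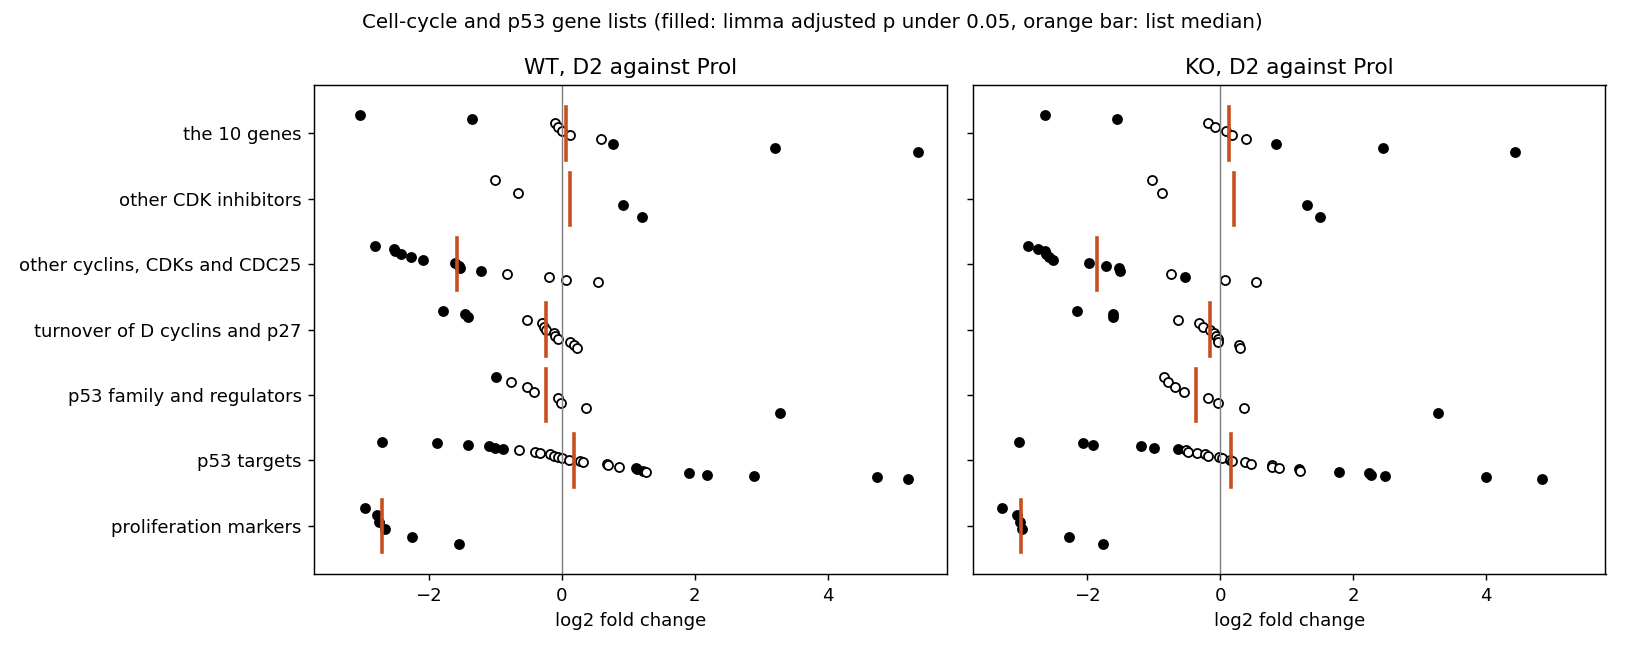
Log2 fold changes in D2 against Prol for each gene of the 10 and of 6 related lists, in WT and in KO (filled points have a limma adjusted p under 0.05, orange bars are list medians). The cyclin, CDK and CDC25 list (median −1.58 in WT) and the proliferation markers (median −2.71) lie mostly below 0, while the p53 targets spread to both sides around a median of 0.19.

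LAP2α knockout and WT cells were then compared in each state. By limma adjusted p, 0 of the 10 genes were called in Prol, at D0 or at D2, where 0.00566%, 0.0% and 0.0% of all genes were. With voom weights the count was also 0 in each state. At an unadjusted p under 0.05 the counts were 0 in Prol, 0 at D0 and 1 at D2, where 1.96% of all genes passed. The gene at D2 was *Cdkn1a*, with 270, 223 and 161 CPM in KO and 662, 327 and 278 CPM in WT. All KO libraries lay below all WT libraries, as 6.17% of all genes did in one direction or the other. The log2 fold change was −0.88 ± 0.36 (95% interval −1.65 to −0.11, unadjusted p = 0.0276, limma adjusted p = 1.0), a mean of 218 against 423 CPM. The size of this difference depended on WT D2 replicate 1: without it the value was −0.50, and without both D2 libraries numbered 1 it was −0.67. Of the 6 myoblast markers, 0 were called in this comparison and 0 had an unadjusted p under 0.05, with 5 negative log2 fold changes and 1 positive (*Myf5*, 0.16) and a median of −0.81 beside −0.013 for all genes. For those 5 (*Myod1*, *Des*, *Cdh15*, *Myog* and *Myh3*, −0.66 to −0.96) all KO libraries also lay below all WT libraries, beside the 6.17% of all genes. The *Myf5* libraries overlapped. The values of *Myog*, a myogenic factor, were 213, 232 and 148 CPM in KO and 532, 386 and 261 CPM in WT. The part of these markers in the *Cdkn1a* value was not tested.

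*Trp53* differed by −0.25 ± 0.17 and *Ccnd3* by −0.37 ± 0.30 (−0.06 without WT D2 replicate 1) between KO and WT at D2, and the other 7 genes by −0.16 to 0.50. The 95% interval included 0 for each of these 9 genes. When the replicate number, which pairs the libraries in this comparison, was fitted as a block, it left out 0 for *Trp53* (−0.47 to −0.03, unadjusted p = 0.0298, limma adjusted p = 0.905) and *Ccnd3* (−0.74 to −0.01, unadjusted p = 0.0448, limma adjusted p = 0.939). Then 3 of the 10 genes, *Cdkn1a* included (limma adjusted p = 0.694), had an unadjusted p under 0.05, as had 5.23% of all genes. Without the block the interval was narrow for *Mdm2* (−0.25 to 0.37) and *Cdk4* (−0.45 to 0.39) and wide for *Ccnd1* (−0.79 to 1.06) and *Cdkn1c* (−1.36 to 2.37). The difference between the genotypes in D2/Prol, tested as an interaction, was called for 0 of the 10 genes, where 0.0% of all genes were called. For *Cdkn1a* it was −0.93 ± 0.51 (95% interval −2.02 to 0.16, unadjusted p = 0.0886, and −1.77 to −0.09 with the block, unadjusted p = 0.0327, limma adjusted p = 1.0 in both), for *Ccnd1* 0.39 ± 0.62 and for *Trp53* −0.21 ± 0.24. The interaction takes in WT D2/Prol, in which the libraries numbered 3 did not deviate together, so the block does not pair all of its libraries. Of the 73 related genes, 0 were called between KO and WT at D2 and 0 had an unadjusted p under 0.05, the smallest being 0.0587 for *Cdc25b*, a phosphatase that activates CDKs (−0.39 ± 0.19, mean of 20.6 against 27.4 CPM). The next smallest p-values of each list belonged to genes whose KO and WT libraries overlapped: *Ccnb2* (−0.44 ± 0.25), *Cdkn2a* (0.33 ± 0.30), *Cdkn2d* (−0.32 ± 0.35), *Skp2* (−0.24 ± 0.17), *Dtl* (−0.28 ± 0.28), *Atm* (0.31 ± 0.36), *Chek2* (−0.22 ± 0.31), *Eda2r* (−0.63 ± 0.39), *Polk* (0.27 ± 0.18), *Bub1* (−0.38 ± 0.29) and *Aurkb* (−0.38 ± 0.32).

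The replicate number went with the level of several genes in all 6 groups. *Cdkn1b* was highest in the library numbered 2 of each group, and *Ccnd1* was lowest there. *Ccnd2* was highest in the library numbered 1 and lowest in that numbered 2, *Ccnd3* was highest and *Cdk4* lowest in the library numbered 1. So 5 of the 10 genes had 1 number at an end of the range in all 6 groups, and among all genes tested this share was 35.9%. The D2 libraries numbered 1 also stood apart in composition, with TMM scaling factors of 0.909 in WT and 0.931 in KO against 1.11 to 1.18 in the other 4 D2 libraries.

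As a description of likeness, the 3 genes of mean 10 CPM or more whose log2 levels followed *Cdkn1a* most closely over the 18 libraries were *Tmem38b*, an intracellular cation channel subunit (Pearson r = 0.993), *Srl*, which encodes the calcium-binding sarcalumenin of muscle (0.992), and *Fam171a2* (0.992), out of 9488 genes. *Srl* had a mean of 21.8 CPM in WT Prol, 180 in WT D2 and 107 in KO D2. For *Ccnd1* they were *Rfwd3*, a ubiquitin ligase of DNA repair (0.986), *Fen1*, the flap endonuclease of DNA replication (0.986), and *Wee1*, the kinase that restrains CDK1 (0.985). *Fen1* had a mean of 89.2 CPM in WT Prol, 72.7 at D0 and 23.2 at D2. For *Cdkn1a* and *Ccnd1* the D2 libraries lay apart from all others, so any gene with a like change at D2 can reach a high coefficient. All genes of a library also share its scaling, and the coefficients carry no p-value.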

How the data were processed

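The authors trimmed the reads, mapped them to the mouse transcriptome (GRCm38), estimated expected counts with RSEM, summed them by gene, removed genes with low counts, scaled the libraries with edgeR's TMM factors and deposited voom-type CPM, the expected count plus 0.5 over the scaled library total. One file per library holds these CPM values. Expected counts and totals (26437823 to 41619016) were recovered from them, and 39.4% to 52.4% of recovered counts under 20 were whole (within 0.001), so no count model was used as the main test.

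The 17672 genes for which each of the 3 libraries of some group held over 5 expected counts were tested with limma 3.58.1 in R 4.3.3 (lmFit on log2 CPM, a single factor of 6 groups, all 18 libraries, eBayes with a variance trend). The same fit was also run on counts simulated around the observed means, and the outcome of that run is not given here. Genes with a Benjamini-Hochberg adjusted p under 0.05 were called. An unadjusted p under 0.05 with a change over 1.5-fold and at least 10 CPM was an alternative. The criteria the study states, with an absolute log2 fold change over 1.5 in its place, were added after seeing the data. Other alternatives were voom weights, other scalings, filters and pseudocounts, a replicate block and left-out libraries. The authors blocked on sequencing lane, which the labels do not give. The members, lists and rules were chosen with earlier results of these data known. Named genes were all members, for each related list up to 3 rises and 3 falls called in WT D2/Prol and the 2 of smallest p in KO/WT D2, and the 3 genes most like *Cdkn1a* and *Ccnd1*. *Ambra1*, *Cdk2*, *Cdk6*, *Cdkn3*, *Myog* and the p53 targets named as not called fall outside this rule and were chosen after their values were seen. Lengths and positions are from GENCODE M21, promoters from RefSeq. *Ccnd1*, *Ccnd2* and *Cdkn1c* had no promoter in that table. Same-numbered libraries deviated together (correlation of deviations from group means over all genes tested above 0.1 for each number) in 7 of 9 comparisons, with 0.151 to 0.645. The exceptions were number 3 of WT D2/D0 (0.01) and of WT D2/Prol (0.0393), so the numbers were taken as pairs in the 7 only. Tables and plots used Python 3.11.15 with matplotlib 3.10.9.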

Additional observations from a re-analysis of the deposited data

How the results depend on the processing

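*Cdkn1a*, *Ccnd1* and *Trp53* kept their direction and their call in D2/Prol, in both genotypes, under all 15 alternatives to the test run for each. Leaving out 1 library gave 3 to 5 of the 10 genes called in WT D2/Prol (3 without Prol replicate 1) and 3 to 4 in KO D2/Prol (3 without Prol replicate 1 or 3 or D2 replicate 2, 4 without the others), against 5 in each with all libraries, the low counts arising where *Cdkn1b* and *Cdkn1c* missed the threshold. Fewer libraries were then fitted. With an unadjusted p, a change over 1.5-fold and 10 CPM as the rule, 1 of the 10 genes (*Cdkn1a*) passed in KO/WT D2. With the study's stated criteria, added after seeing the data, 0 passed there, 2 in WT D2/Prol and WT D2/D0 (*Cdkn1a*, *Ccnd1*) and 3 in KO D2/Prol (with *Trp53*). These criteria were applied to the fit used here and not to the study's own fit, which blocked on sequencing lane. The study reports more genes in WT D2/Prol and in KO/WT D2 than the criteria gave here, so these counts do not reproduce its lists. With the replicate number as a block, 6 of the 10 passed in KO D2/D0, and 5 with voom weights and a random replicate block, in place of 3. In WT D2/Prol and WT D2/D0 the libraries numbered 1 and 2 deviated together and those numbered 3 did not. The replicate number as a block also made *Ccnd3* a call in WT D2/Prol (limma adjusted p = 0.0102) and *Cdkn1b* and *Cdkn1c* calls in WT D2/D0, and left *Cdkn1a* with an adjusted p of 0.694 in KO/WT D2. It ended no call among the 10 genes, gained only these and those of *Cdkn1b*, *Ccnd2* and *Ccnd3* in KO D2/D0, and gave 8431 genes called in WT D2/Prol in place of 5424, 8580 in place of 5706 in KO D2/Prol, 7642 in place of 4590 in WT D2/D0 and 8126 in place of 4997 in KO D2/D0. In WT D2/D0 and KO D2/D0, fitting only the groups compared gave 2332 and 3185 genes, voom weights with a random replicate block 7216 and 7910, and leaving out D0 replicate 3 gave 3022 and 3271. The 1.5-fold rule gave 40 genes in WT D0/Prol, 19 in KO D0/Prol, 20, 37 and 82 in KO/WT Prol, D0 and D2, and 41 in the interaction, the study's stated criteria 14, 5, 4, 21, 13 and 16 in the same order and 1188, 1358, 1261 and 1445 in WT D2/D0, WT D2/Prol, KO D2/D0 and KO D2/Prol, and a pseudocount of 1 CPM 31 in KO/WT D2. Library totals alone moved the median of all genes by 0.162 in WT D2/Prol and 0.132 in KO D2/Prol, lowered the share of calls that were falls from 45.8% to 36.0% and from 47.0% to 39.5%, made *Ccnd3* a call in WT D2/Prol (0.75), and turned the sign of 3 genes near 0, *Cdkn2c* (0.11 in WT), *Ccnd2* (0.16 in WT) and *Cdk4* (0.06 in WT, 0.05 in KO). *Ccnd2* in WT D2/Prol was also positive with voom weights (0.01), median-of-ratios scaling (0.02) and the random block (0.00), and ran from −0.41 to 0.31 with 1 library left out. *Cdkn2c* in WT D2/Prol ran from −0.13 to 0.08 with 1 library left out and was 0.02 without both D2 libraries numbered 1, an alternative added after seeing the data. Low counts limit *Cdkn1c*, at 3 expected counts in its lowest library. The cause of these shifts was not tested.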
